A study of Mus musculus with 10 samples.

Results

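The genes described here are the ligands, receptors and TRAF adaptors of the tumor necrosis factor (TNF) superfamily in mouse MLL-AF9 leukemia cells treated with inhibitors. They are the genes whose symbol begins with Tnfsf or Tnfrsf, together with Tnf, Lta, Ltb, Fas, Fasl, Cd27, Cd70, Ltbr and the Traf genes numbered 1 to 7, that had at least 10 reads summed over the libraries. In all, 47 names matched and 36 of the 24015 genes in the table reached the minimum, of which 9 encode ligands, 20 receptors and 7 TRAFs.

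RNA was sequenced from MAF9 cells, C57BL/6 mouse bone marrow cells into which the MLL-AF9 fusion oncogene had been transduced. The cells grew in medium with 15% serum and 10 ng/ml of the cytokine IL-3, and were treated for 4 days with DMSO (mock) or with MM-401, which targets the MLL1 partner WDR5, EPZ5676 (EPZ in the labels), an inhibitor of the H3K79 methyltransferase DOT1L, MI-2-2 (MI in the labels), which targets MENIN, or the inhibitor iBET. Each inhibitor was given at its IC50 dose. Each of the 5 conditions had 2 libraries, which the submitters describe as biological duplicates. All 10 libraries, the DMSO controls included, carried the transduced fusion, which sits at random sites in the genome and not at the endogenous MLL1 gene. The comparisons address which parts of the leukemic program each inhibitor changes.

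TNF superfamily ligands are made mostly as membrane-bound trimers, some of which proteases release from the cell surface. Receptors with a death domain, among them Tnfrsf1a and Fas, can assemble complexes that activate caspases, and many receptors recruit TRAF proteins, which pass the signal on to NF-kB and to stress kinases. Macrophages and neutrophils are known sources of TNF and of the B-cell survival factors BAFF (Tnfsf13b) and APRIL (Tnfsf13).

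Library totals lay between 20394762 and 29473127 reads. Replicate 2 of DMSO stood apart from the other 9 libraries. It held 3630 reads of 4 Y-linked genes, against 0 to 2 in the others, and Xist at 4.65 CPM (the read count scaled to library size, with TMM normalization), against 1026 to 2817. These reads show male cells in replicate 2 of DMSO and female cells in the other 9 libraries. The DMSO libraries therefore did not hold cells of the same animal. The labels do not say from which animals or cultures they came. The DMSO mean used below stands for libraries that differ in the sex of the cells. Between the DMSO libraries, 9 of the 34 members that could be tested were more than 2-fold apart, against 1 to 4 members within each inhibitor group. Over all 12971 genes tested, 21.2% were more than 2-fold apart in DMSO and 5.38% to 7.29% in the other groups. Tnfrsf18, Tnfrsf9, Tnfsf9, Ltb, Tnfsf12, Traf1, Cd27, Tnfsf13 and Tnfrsf25 were the members far apart, and all were lower in replicate 2. Changes against DMSO are therefore also given without each DMSO library where that matters. The progenitor and leukemia markers fitted the label in part. Hoxa9 lay between 277 and 519 CPM and Itgam between 265 and 2728 CPM in every library, but Cd34 was at 0.0970 to 2.35 CPM. Of the T and NK cell markers, Cd3e and Ncr1 had no read in any library.

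**Figure D1:**
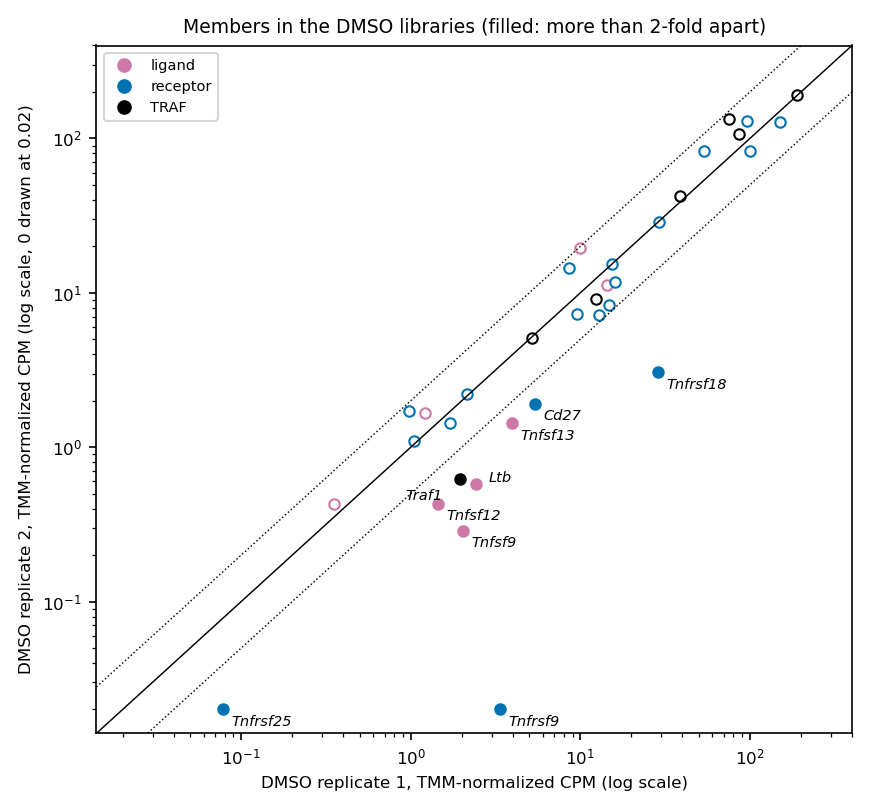
Level of each of the 34 members tested in DMSO replicate 1 (x axis) and DMSO replicate 2 (y axis), in TMM-normalized CPM on log scales, with values of 0 drawn at 0.02. The solid line marks equal levels and the dotted lines 2-fold differences. The 9 filled, named points are more than 2-fold apart and all lie below the lines, that is, lower in replicate 2.

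Most of the members were expressed in mock-treated cells, over a wide range of levels. Per kilobase of exon, a scale that allows levels to be compared between genes, Tnfrsf1a, the main TNF receptor with a death domain, was the highest member in DMSO at 53.6 CPM per kilobase. Traf7 followed at 32.5, Tnfrsf1b, the TNF receptor without a death domain, at 29.6, Ltbr, the lymphotoxin beta receptor, at 28.9 and Tnfrsf21, the death receptor also called DR6, at 22.3. Receptors and TRAFs filled the first 11 places, and the highest ligands were Tnfsf14 (LIGHT) at 7.94 and Tnf at 7.83 CPM per kilobase. With EPZ5676, Tnfrsf1a was at 106 and Tnfrsf1b at 73.8 CPM per kilobase, the highest levels of any member there. The lengths came from the GENCODE M21 annotation, a later one than that of the files, so this order holds only to the extent that the exons match.

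**Figure D2:**
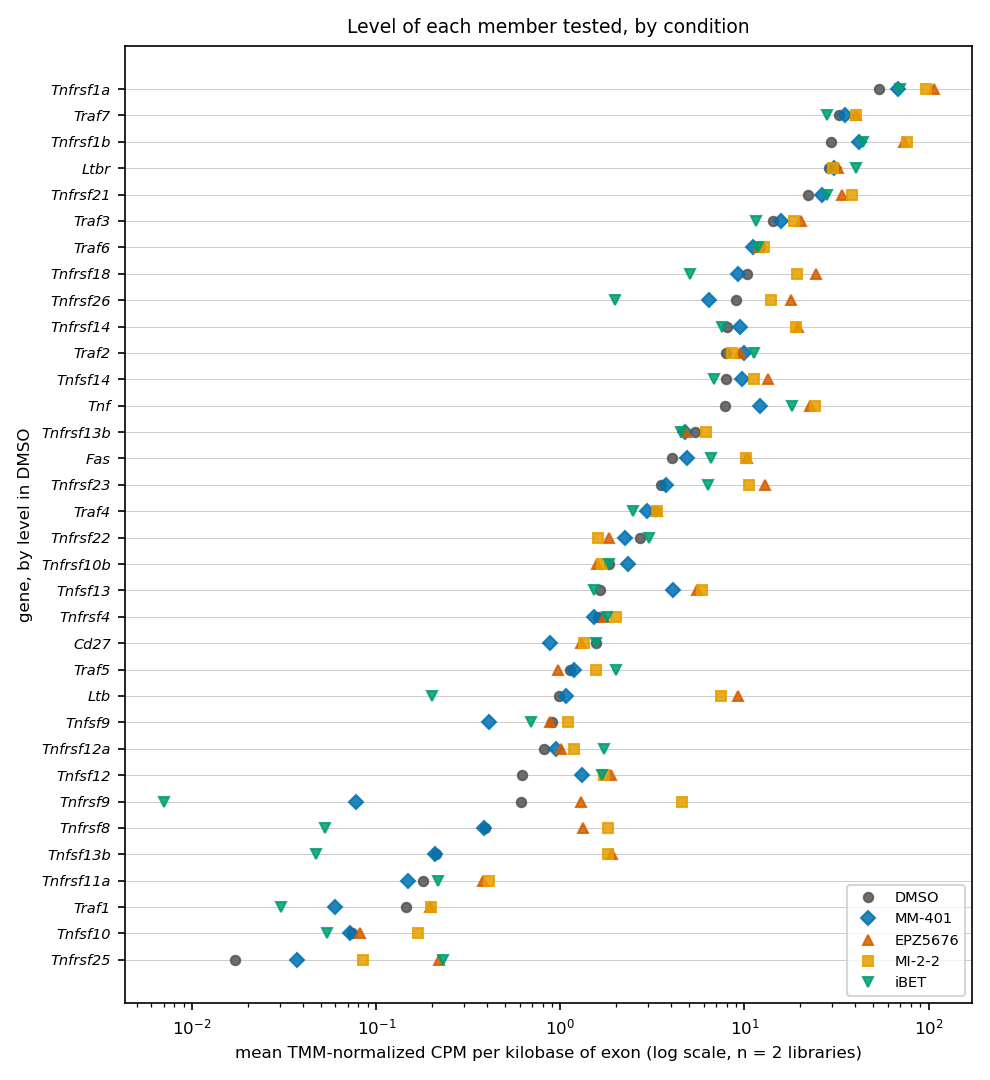
Mean level of each member tested in CPM per kilobase of exon (log x axis, n = 2 libraries), with genes ordered by their level in DMSO and 1 symbol per condition. Receptors and TRAFs hold the top of the order. Tnfsf13b, Ltb and Tnfrsf8 show EPZ5676 and MI-2-2 well to the right of DMSO and iBET well to the left.

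A group of ligands and receptors rose with EPZ5676 and with MI-2-2. With EPZ5676, 13 of the 34 members tested rose against DMSO and none fell (edgeR quasi-likelihood test, Benjamini-Hochberg adjusted p below 0.05). Over all genes tested 38.1% were called, 18.7% up and 19.4% down, so the share of members called was about that of all genes while the calls were all in 1 direction. The median log2 fold change was 0.68 over the members and -0.06 over all genes. By role, 4 of 8 ligands and 9 of 19 receptors rose, and 0 of 7 TRAFs. With so few TRAFs, 0 cannot be set apart from the 18.7% of all genes that rose. The median log2 fold change of the TRAFs was 0.25. With MI-2-2, 12 members rose and none fell, 4 ligands and 8 receptors, against 41.4% of all genes called, 20.2% up and 21.2% down, and the median log2 fold change was 0.71 over the members and -0.05 over all genes. The 12 members were among the 13 that rose with EPZ5676, and Tnfrsf25 was the other one. EPZ5676 and MI-2-2 share the DMSO libraries, so these comparisons are not independent. All groups share 1 estimate of the spread, while the DMSO libraries were further apart, so standard errors against DMSO may be too small. In fits of only the groups compared, the calls of Tnfsf13, Ltb, Tnfrsf21, Fas, Tnfrsf8 and Tnfrsf14 were lost with both inhibitors. With MI-2-2 those of Tnfrsf1a and Tnfrsf26 were lost too.

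The rise of these members went along with markers of mature myeloid cells. Summed over 8 neutrophil genes, the level was 642 to 3530 CPM in DMSO, 48986 to 67114 with EPZ5676 and 44107 to 44967 with MI-2-2. Summed over 10 macrophage genes, it was 65.2 to 81.0 CPM in DMSO, 390 to 520 with EPZ5676 and 354 to 763 with MI-2-2. No gene of either list was without reads in any of these groups. Their part in the changes of the TNF superfamily was not tested, and in bulk RNA a change in the number of cells of a type and a change of RNA per cell cannot be told apart.

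iBET gave a mixed picture. Against DMSO, 5 members rose (Tnf, Tnfrsf23, Tnfrsf25, Traf2 and Traf5) and 4 fell (Tnfsf13b, Ltb, Tnfrsf8 and Tnfrsf26), where 13.9% of all genes were called, 6.38% up and 7.54% down. The median log2 fold change was -0.02 over the members and -0.04 over all genes. The calls changed with the libraries used. Fewer members were called without iBET replicate 1 or iBET replicate 2. Fewer were also called without either MM-401 or either MI-2-2 library, although those libraries are not in the comparison. The filter, the scaling and the estimate of the spread were redone in each of these fits. A fit of the DMSO and iBET libraries alone called 0 of all genes tested. With the replicate number as a block 14 members were called, the 9 above and Fas (0.69, adjusted p = 0.0428), Tnfrsf1b (0.58, adjusted p = 0.0251) and Ltbr (0.51, adjusted p = 0.0324), which were higher, and Traf1 (-2.10, adjusted p = 0.0198) and Tnfrsf9 (adjusted p = 0.0306, with 1 read in the iBET libraries), which were lower, on the log2 scale in edgeR. The share of all genes called with the block is not given here, so the added calls cannot be read as particular to these members. The summed neutrophil markers were at 484 to 1138 CPM and the macrophage markers at 73.6 to 110 CPM with iBET. The summed progenitor and leukemia markers were at 1523 to 1569 CPM, against 2028 to 6463 in DMSO. Mpo made up most of that difference, at 386 and 4816 CPM in DMSO and 14.6 and 16.1 with iBET. Hoxa9 was higher with iBET, at 519 and 505 CPM against 445 and 380 in DMSO. With EPZ5676 and MI-2-2 the sums were 3555 to 4631 and 3825 to 4607 CPM, with Itgam at 1862 to 2728. Meis1 with those inhibitors was at 0.650 to 1.79 CPM, against 36.4 and 89.9 in DMSO.

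With MM-401, no member was called against DMSO, where 0% of all genes were called by edgeR. At an unadjusted p under 0.05 there were 5 members, and the DESeq2 test called 0 members. Tnfrsf1b had the smallest adjusted p (log2 fold change 0.49 ± 0.17, adjusted p = 0.358). For 19 of the 34 members the 95% interval of the log2 fold change lay within 2-fold in either direction, and for the other 15 it reached further, so a change of more than 2-fold lay within the interval. Without DMSO replicate 1, which leaves replicate 2 as the only control, Tnfsf13 (log2 fold change 2.22), Ltb (1.49) and Tnfrsf18 (2.21) were called higher in edgeR. All of these were lower in DMSO replicate 2 than in replicate 1. The share of all genes called in that fit is not given here. Without DMSO replicate 2 no member was called. The summed neutrophil markers were at 4476 to 5858 CPM with MM-401, between the DMSO and the EPZ5676 levels.

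**Figure D3:**
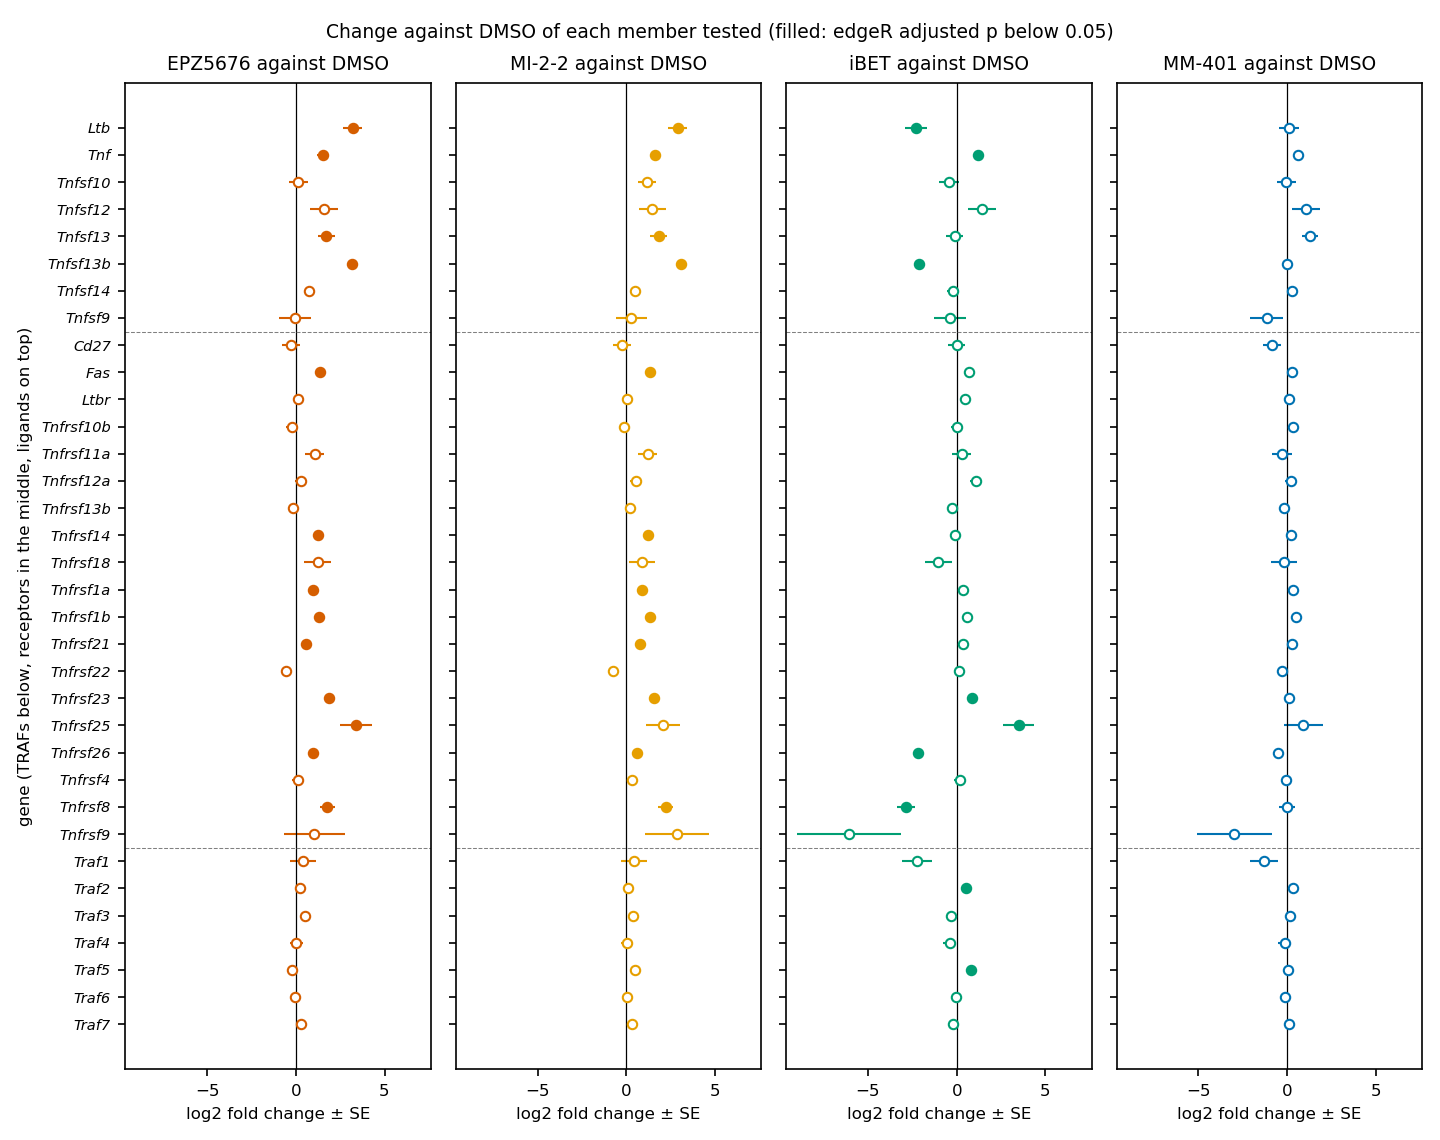
Log2 fold change against DMSO (x axis, point) with its standard error (bar) for each of the 34 members tested, 1 panel per inhibitor, with ligands on top, receptors in the middle and TRAFs below. Filled points have an edgeR adjusted p below 0.05. The EPZ5676 and MI-2-2 panels hold 13 and 12 filled points, all to the right of 0, the iBET panel 5 to the right and 4 to the left, and the MM-401 panel none.

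A small set of members rose with EPZ5676 and MI-2-2 and fell with iBET. These were the ligands Tnfsf13b and Ltb and the receptors Tnfrsf8 and Tnfrsf26. Over all genes tested, 18.7% rose with EPZ5676, 20.2% rose with MI-2-2 and 7.54% fell with iBET. The share of all genes that did all of these was not counted, so the pattern cannot be called particular to this family. Several low marker lists moved the same way as the 4 members when summed, while the mast cell and basophil list was lower with EPZ5676 and MI-2-2. Summed over 5 B cell genes, the level was 2.92 to 3.50 CPM in DMSO, 7.95 to 8.24 with EPZ5676, 4.13 to 5.46 with MI-2-2 and 0.133 to 0.459 with iBET. Nearly all of it came from Cd79a and Cd79b, while Ms4a1 and Pax5 had no read in any library. Over 7 stroma genes it was 0.389 to 1.20 CPM in DMSO, 6.16 to 19.0 with EPZ5676, 3.03 to 11.3 with MI-2-2 and 0 with iBET. Col1a1 made up most of the EPZ5676 and MI-2-2 levels, and Col1a2, Col3a1, Dcn and Lum had no read in any library. Over 7 dendritic cell genes it was 4.65 to 6.19 CPM in DMSO, 9.79 to 19.8 with EPZ5676, 7.07 to 7.16 with MI-2-2 and 1.84 to 3.18 with iBET, with Siglech at 0 in all libraries but 1. Over 6 erythroid and megakaryocyte genes it was 1.49 to 3.43, 4.33 to 6.26, 3.54 to 6.94 and 0.995 to 1.19 CPM in the same order, with Hba-a1 and Hbb-b1 at 0 throughout. Not every gene moved with its list. With EPZ5676, the dendritic cell gene Ccr7 was at 0 in both libraries, against 0.82 and 0.86 CPM in DMSO. The erythroid gene Klf1 was at 0.776 and 0.282 CPM, against 1.17 and 0.815. Summed over 8 mast cell and basophil genes, the level was 14.9 to 21.4 CPM in DMSO and 18.4 to 18.6 with iBET. It was 7.52 to 7.81 with EPZ5676 and 10.0 to 10.6 with MI-2-2. The part of these cell types in the changes of the 4 members was not tested.

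The stretch of 250 bases before the RefSeq start of Tnfsf13b, Ltb and Tnfrsf8 is shown because their levels moved together across the inhibitors. The sequences are from RefSeq on the GRCm38.p6 build, a later build than the mm9 of the deposited counts, and were matched by gene symbol, which found 31 of the 36 members. Each is written 5′ to 3′ on the strand of the gene and ends at the base before the start. Capitals mark matches, on either strand, to a kB motif, to the AP-1 motif TGANTCA, to the C/EBP motif TTGCNNAA, to the RUNX motif TGTGGT and to TATAAA.
Tnfsf13b, chr8:10006217-10006466, plus strand: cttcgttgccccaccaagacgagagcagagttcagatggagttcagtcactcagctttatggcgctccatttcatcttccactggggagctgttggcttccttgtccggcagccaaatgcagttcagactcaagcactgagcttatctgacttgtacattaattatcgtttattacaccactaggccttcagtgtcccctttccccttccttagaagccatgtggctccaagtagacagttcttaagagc
Ltb, chr17:35194257-35194506, plus strand: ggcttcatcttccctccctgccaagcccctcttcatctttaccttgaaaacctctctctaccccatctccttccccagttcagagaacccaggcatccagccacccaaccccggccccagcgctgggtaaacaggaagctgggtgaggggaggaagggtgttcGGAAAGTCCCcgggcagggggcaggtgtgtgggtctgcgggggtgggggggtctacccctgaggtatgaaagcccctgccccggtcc
Tnfrsf8, chr4:145315165-145315414, minus strand: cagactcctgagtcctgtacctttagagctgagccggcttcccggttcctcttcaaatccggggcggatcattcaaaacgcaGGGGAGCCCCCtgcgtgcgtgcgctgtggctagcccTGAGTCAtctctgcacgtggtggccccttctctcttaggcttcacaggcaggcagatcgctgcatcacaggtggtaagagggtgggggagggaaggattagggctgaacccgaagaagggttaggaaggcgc

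In these windows Ltb held a kB match 87 to 78 bases before the start. Tnfrsf8 held overlapping kB matches between 168 and 158 bases and an AP-1 match 132 to 126 bases before the start. No match was found in the Tnfsf13b window shown. A second RefSeq start of Tnfsf13b, whose window was read but is not shown, had an AP-1 match 127 to 121 bases before it. Of 32851 promoters of the same length, 7.25% held a kB match, 6.75% an AP-1 match, 9.56% a C/EBP match, 14% a RUNX match and 12.4% TATAAA. Among the 34 promoters of members, 14.7% held a kB match, 17.6% an AP-1 match, 2.94% a C/EBP match, 14.7% a RUNX match and 11.8% TATAAA. A match is a string of letters and not a binding site, and none of these data measured binding.

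Tnfsf13b encodes BAFF, the survival factor of B cells. It was at 1.21 and 1.68 CPM in the DMSO libraries, 1.35 and 1.51 with MM-401, 13.1 and 13.0 with EPZ5676, 12.8 and 12.0 with MI-2-2 and 0.265 and 0.383 with iBET. The EPZ5676 and MI-2-2 libraries lay far above all others and the iBET libraries below all others, with no overlap, and the MM-401 libraries lay within the DMSO range. Tnfsf13b rose 9.08-fold with EPZ5676 (log2 fold change 3.18 ± 0.28, adjusted p = 0.000474, edgeR). With MI-2-2 it rose 8.62-fold (log2 fold change 3.11 ± 0.28, adjusted p = 0.000533). Both calls were kept on leaving out any library, with log2 fold changes of 2.96 to 3.46 and 2.89 to 3.39. With iBET it was 4.35-fold lower (log2 fold change -2.12 ± 0.31, adjusted p = 0.00752), from 6 and 10 reads in the iBET libraries. That call was lost without either iBET library (log2 fold change -1.89 to -2.41, adjusted p from 0.0512 to 0.0621).

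Ltb encodes lymphotoxin beta, which anchors lymphotoxin alpha in the membrane and signals through Ltbr. Its levels were 2.41 and 0.575 CPM in the DMSO libraries, 1.77 and 1.47 with MM-401, 14.8 and 13.2 with EPZ5676, 12.5 and 10.2 with MI-2-2 and 0.265 and 0.344 with iBET. All 4 libraries of EPZ5676 and MI-2-2 lay above the rest and the iBET libraries below the rest, while the DMSO libraries were 4.20-fold apart. Ltb rose 9.21-fold with EPZ5676 (log2 fold change 3.20 ± 0.55, adjusted p = 0.00383, edgeR) and 7.47-fold with MI-2-2 (log2 fold change 2.90 ± 0.55, adjusted p = 0.00509). The DMSO library used moved the size of this rise. Without DMSO replicate 1 the log2 fold change was 4.59 with EPZ5676 and 4.29 with MI-2-2, and without replicate 2 it was 2.56 and 2.26, all still called. With iBET the log2 fold change was -2.29 ± 0.63 (adjusted p = 0.0481), close to the threshold. The iBET call was kept without DMSO replicate 2 (-2.96) and lost without any other library, with a log2 fold change of -0.89 (adjusted p = 0.222) without DMSO replicate 1.

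Tnfrsf8 encodes CD30, a receptor of activated lymphocytes that binds TRAF proteins. It was at 0.973 and 1.73 CPM in the DMSO libraries, 1.65 and 1.01 with MM-401, 3.78 and 5.36 with EPZ5676, 6.85 and 5.66 with MI-2-2 and 0.133 and 0.230 with iBET. The EPZ5676 and MI-2-2 libraries lay above all others and the iBET libraries below all others, with 3 and 6 reads. Its change was 3.40-fold with EPZ5676 (log2 fold change 1.76 ± 0.43, adjusted p = 0.0142) and 4.64-fold with MI-2-2 (log2 fold change 2.21 ± 0.43, adjusted p = 0.00555), and with iBET it was 7.15-fold lower (log2 fold change -2.84 ± 0.51, adjusted p = 0.0132, edgeR). The EPZ5676 call was lost without EPZ5676 replicate 2 (log2 fold change 1.49, adjusted p = 0.0838). The iBET call was lost without either iBET library (log2 fold change -2.52 to -3.29, adjusted p from 0.0761 to 0.103). Tnfrsf8 lies close to Tnfrsf1b in the RefSeq gene order, and Tnfrsf1b is described with the receptors.

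Tnfrsf26 belongs to a cluster of rodent receptors with Tnfrsf22 and Tnfrsf23, and no promoter was printed for it. Tnfrsf26 was at 29.0 and 28.9 CPM in the DMSO libraries, 22.4 and 18.8 with MM-401, 54.6 and 60.5 with EPZ5676, 39.4 and 50.2 with MI-2-2 and 7.47 and 5.32 with iBET. The DMSO libraries were nearly equal, and the 4 groups other than DMSO did not overlap it. It rose 1.99-fold with EPZ5676 (log2 fold change 0.99 ± 0.20, adjusted p = 0.00701) and 1.55-fold with MI-2-2 (log2 fold change 0.63 ± 0.20, adjusted p = 0.0356), and with iBET it was 4.53-fold lower (log2 fold change -2.18 ± 0.21, adjusted p = 0.00211, edgeR). The iBET call was kept on leaving out any library. The MI-2-2 call was lost without either DMSO library, either MM-401 library, either EPZ5676 library or MI-2-2 replicate 2 (log2 fold change 0.45 to 0.66, adjusted p from 0.0523 to 0.205). The 3 genes of the cluster resemble each other, and how reads shared between them were counted is not given in the sources used here, so their levels are uncertain.

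**Figure D4:**
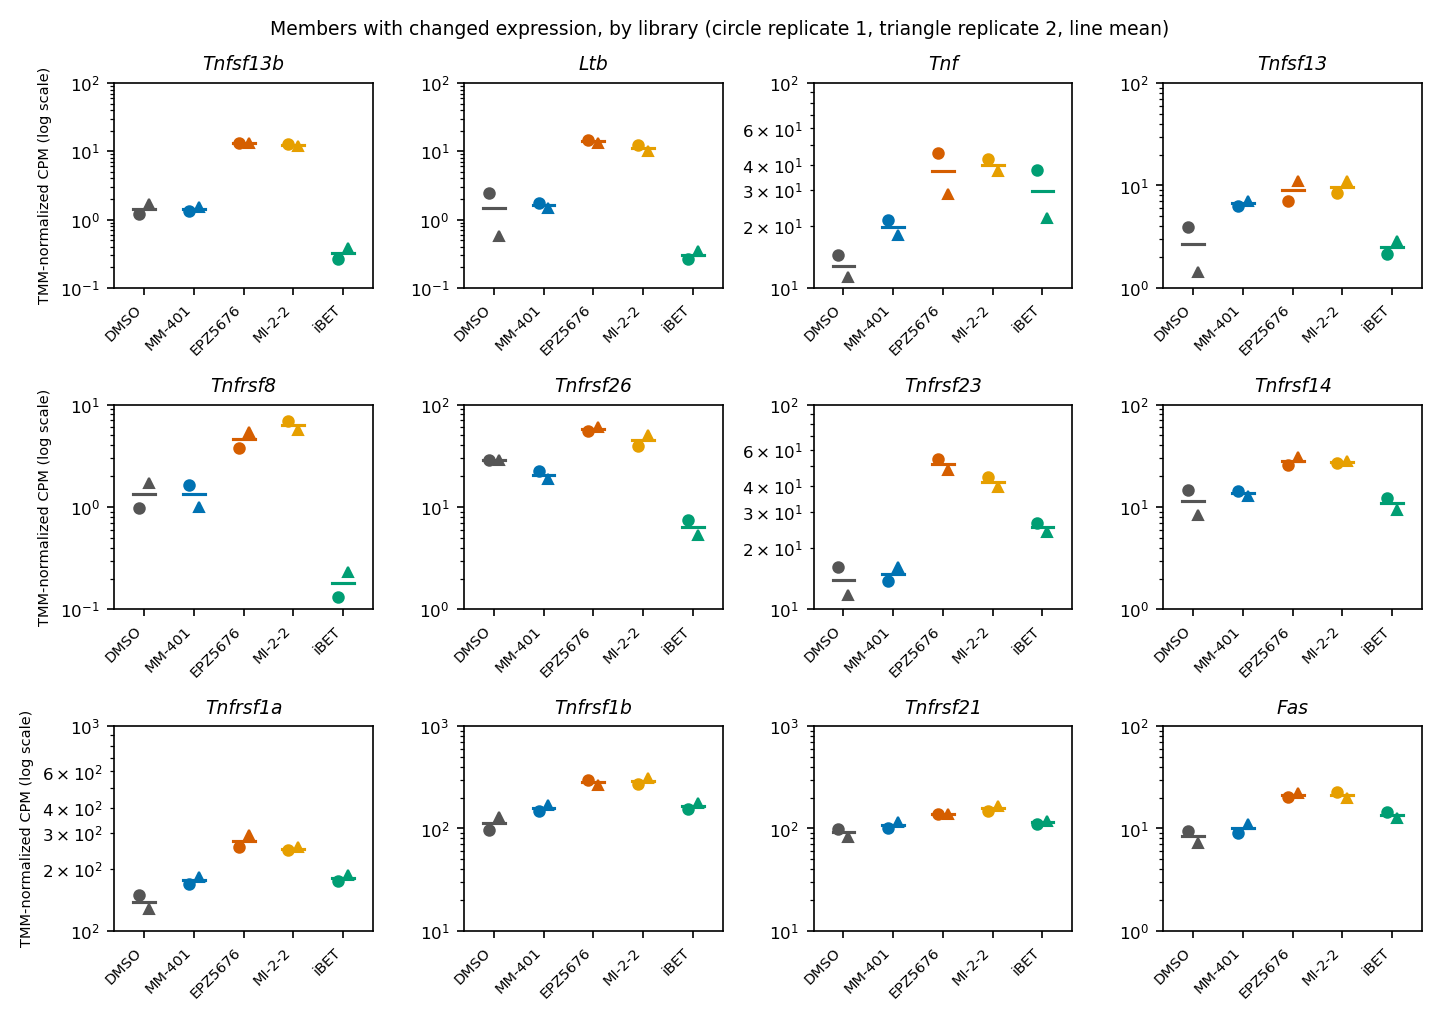
Level of 12 members by library, in TMM-normalized CPM on log y axes whose ranges differ between panels. Circles are replicate 1, triangles replicate 2 and lines the means. In the Tnfsf13b, Ltb, Tnfrsf8 and Tnfrsf26 panels the EPZ5676 and MI-2-2 points lie above the DMSO points and the iBET points below them. In the Tnf panel all 3 of these inhibitors lie above DMSO.

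Among the other ligands, Tnf rose with 3 inhibitors. It was at 14.4 and 11.3 CPM in the DMSO libraries, 21.5 and 18.2 with MM-401, 45.5 and 28.8 with EPZ5676, 42.5 and 37.2 with MI-2-2 and 37.6 and 21.9 with iBET. The DMSO libraries were the lowest of all 10, with no overlap. The change was 2.89-fold with EPZ5676 (log2 fold change 1.53 ± 0.31, adjusted p = 0.00740) and 3.10-fold with MI-2-2 (log2 fold change 1.63 ± 0.31, adjusted p = 0.00540), and both calls were kept on leaving out any library. With iBET it was 2.31-fold (log2 fold change 1.21 ± 0.31, adjusted p = 0.0407, edgeR). The iBET call was lost without DMSO replicate 2, either MM-401 library, either MI-2-2 library or either iBET library (log2 fold change 0.77 to 1.55, adjusted p from 0.0588 to 0.223). Tnf, Ltb and Lta lie close together on chromosome 17. Lta, which encodes lymphotoxin alpha, was too sparse to be tested, with 0 reads in DMSO and MM-401, 4 and 3 with EPZ5676, 1 and 0 with MI-2-2 and 0 and 2 with iBET. Set against a floor of 3 reads over the DMSO group, the 7 reads with EPZ5676 gave a ratio of 2.59. That ratio leaves out the counting error of the 7 reads and is not a lower limit.

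Tnfsf13 encodes APRIL, which shares receptors with BAFF. The libraries held it at 3.97 and 1.44 CPM in the DMSO libraries, 6.34 and 7.06 with MM-401, 7.08 and 11.0 with EPZ5676, 8.37 and 11.0 with MI-2-2 and 2.12 and 2.87 with iBET. EPZ5676, MI-2-2 and MM-401 libraries lay above both DMSO libraries, and the iBET libraries lay between the DMSO libraries. Tnfsf13 rose 3.31-fold with EPZ5676 (log2 fold change 1.73 ± 0.47, adjusted p = 0.0222) and 3.55-fold with MI-2-2 (log2 fold change 1.83 ± 0.47, adjusted p = 0.0163, edgeR). These changes were 2.65 and 2.75 on the log2 scale without DMSO replicate 1, and 1.21 and 1.32 without DMSO replicate 2. The EPZ5676 call was lost without EPZ5676 replicate 2 (log2 fold change 1.38, adjusted p = 0.120) and the MI-2-2 call without MI-2-2 replicate 2 (log2 fold change 1.62, adjusted p = 0.0855). With MM-401 it was at a log2 fold change of 1.30 ± 0.46 that did not pass the test (adjusted p = 0.362). Tnfsf13 and its neighbor Tnfsf12 overlap a read-through gene, Tnfsfm13, over 60% and 48.3% of their exon bases in the GENCODE annotation, so reads there could be counted for either.

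The remaining ligands did not pass the test against DMSO with any inhibitor. Tnfsf12, which encodes TWEAK, differed from DMSO by a log2 value of 1.59 ± 0.77 (EPZ5676), 1.47 ± 0.76 (MI-2-2) and 1.43 ± 0.76 (iBET), none past the threshold, where the DMSO libraries were 3.34-fold apart. Tnfsf14, the ligand LIGHT, was at 9.93 and 19.4 CPM in the DMSO libraries, 16.5 and 19.5 with MM-401, 21.9 and 27.8 with EPZ5676, 18.2 and 23.6 with MI-2-2 and 12.1 and 13.2 with iBET. The iBET libraries lay within the DMSO range, and EPZ5676 lay above it. It was called higher without DMSO replicate 2, at 1.35 (adjusted p = 0.00515) with EPZ5676 and 1.11 (adjusted p = 0.00982) with MI-2-2 on the log2 scale. Tnfsf10, the death ligand TRAIL, was low in every library, at 0.350 and 0.431 CPM in the DMSO libraries, 0.296 and 0.462 with MM-401, 0.582 and 0.282 with EPZ5676, 1.13 and 0.657 with MI-2-2 and 0.265 and 0.306 with iBET. Its MI-2-2 libraries were the highest. Tnfsf9, the ligand of Tnfrsf9, was at 0.210 to 2.02 CPM and overlaps the gene Gm11110 on the opposite strand, from which it cannot be told apart if the counting ignored strand.

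Both TNF receptors were among the most abundant members and rose with EPZ5676 and MI-2-2. Tnfrsf1a, which couples TNF to both NF-kB and caspases, was at 150.3 and 127 CPM in the DMSO libraries, 170.3 and 184 with MM-401, 257 and 294 with EPZ5676, 247 and 257 with MI-2-2 and 175 and 186 with iBET. DMSO was lowest and EPZ5676 and MI-2-2 highest, with MM-401 and iBET between them and no overlap with DMSO. The change was 1.99-fold with EPZ5676 (log2 fold change 0.99 ± 0.13, adjusted p = 0.00139) and 1.82-fold with MI-2-2 (log2 fold change 0.86 ± 0.13, adjusted p = 0.00202, edgeR). Tnfrsf1b, which binds TRAF proteins and has no death domain, was at 95.8 and 130.1 CPM in the DMSO libraries, 148 and 169.7 with MM-401, 295 and 268 with EPZ5676, 272 and 310.4 with MI-2-2 and 156 and 179 with iBET. Here too both inhibitors lay above all other libraries. Tnfrsf1b rose 2.49-fold with EPZ5676 (log2 fold change 1.32 ± 0.17, adjusted p = 0.00145) and 2.58-fold with MI-2-2 (log2 fold change 1.37 ± 0.17, adjusted p = 0.00117, edgeR). The 4 calls were kept on leaving out any library, but the Tnfrsf1a call with MI-2-2 was lost in a fit of only the groups compared. With iBET neither passed, at 0.38 ± 0.13 for Tnfrsf1a (adjusted p = 0.0830) and 0.57 ± 0.17 for Tnfrsf1b (adjusted p = 0.0639).

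Of the other death domain receptors, Fas and Tnfrsf21 rose and Tnfrsf10b did not pass the test. Fas, the receptor of Fas ligand, was at 9.50 and 7.24 CPM in the DMSO libraries, 9.09 and 11.0 with MM-401, 20.3 and 22.3 with EPZ5676, 22.5 and 19.7 with MI-2-2 and 14.4 and 12.6 with iBET. The EPZ5676 and MI-2-2 libraries lay highest, the iBET libraries next, and the DMSO and MM-401 libraries overlapped. Fas rose 2.54-fold with EPZ5676 (log2 fold change 1.35 ± 0.20, adjusted p = 0.00236) and 2.52-fold with MI-2-2 (log2 fold change 1.33 ± 0.20, adjusted p = 0.00227, edgeR), and with iBET it was at 0.69 ± 0.20 (adjusted p = 0.0596). Tnfrsf21 was at 99.6 and 83.3 CPM in the DMSO libraries, 102 and 115 with MM-401, 139 and 139 with EPZ5676, 149 and 167 with MI-2-2 and 112 and 118 with iBET. DMSO was again the lowest group, without overlap. Its log2 fold changes were 0.60 ± 0.13 with EPZ5676 (adjusted p = 0.00853) and 0.79 ± 0.13 with MI-2-2 (adjusted p = 0.00278). It was also called higher with iBET without DMSO replicate 1, at 0.47 (adjusted p = 0.0325). Tnfrsf10b, the mouse TRAIL receptor, was at 7.19 to 13.3 CPM in all libraries, with log2 fold changes against DMSO of -0.23 ± 0.30 with EPZ5676 and -0.13 ± 0.30 with MI-2-2.

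Tnfrsf25, the death receptor DR3, was nearly silent in DMSO. Its reads were 2 and 0 in DMSO, 2 and 2 with MM-401, 7 and 14 with EPZ5676, 3 and 7 with MI-2-2 and 10 and 16 with iBET. The EPZ5676 and iBET libraries lay above the rest. As a ratio of normalized reads, EPZ5676 was 11.7 times DMSO (95% interval 2.85 to 103) and iBET 12.4 times DMSO (3.11 to 108), intervals that cover counting error only. The edgeR adjusted p was 0.0196 with EPZ5676, 0.0388 with iBET and 0.119 with MI-2-2. The fitted log2 fold change with EPZ5676 was 3.41 ± 0.89 and moved to 6.56 without DMSO replicate 1 and 2.63 without replicate 2. With iBET it was 3.49 ± 0.88 and moved to 6.64 and 2.68. The EPZ5676 call was lost without EPZ5676 replicate 2 (log2 fold change 2.87, adjusted p = 0.115), and the iBET call was lost on leaving out any library but DMSO replicate 1.

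Tnfrsf23 and Tnfrsf22 are described in mice as decoy receptors for TRAIL, and Tnfrsf23 rose with 3 inhibitors while Tnfrsf22 did not pass the test against DMSO with any. Tnfrsf23 was at 16.1 and 11.7 CPM in the DMSO libraries, 13.7 and 16.2 with MM-401, 54.4 and 47.8 with EPZ5676, 44.2 and 39.7 with MI-2-2 and 26.5 and 23.8 with iBET. The order was EPZ5676, MI-2-2, iBET and then MM-401 with DMSO, and only these last 2 groups overlapped. It rose 3.66-fold with EPZ5676 (log2 fold change 1.87 ± 0.19, adjusted p = 0.000703), 3.01-fold with MI-2-2 (log2 fold change 1.59 ± 0.19, adjusted p = 0.00101) and 1.80-fold with iBET (log2 fold change 0.85 ± 0.19, adjusted p = 0.0256, edgeR). The iBET call was lost without either iBET library (log2 fold change 0.77 to 0.93, adjusted p from 0.104 to 0.146). Tnfrsf22 was at 8.53 and 14.4 CPM in the DMSO libraries, 8.87 and 9.95 with MM-401, 8.05 and 7.44 with EPZ5676, 6.50 and 7.08 with MI-2-2 and 15.0 and 10.4 with iBET. Its EPZ5676 and MI-2-2 libraries lay below both DMSO libraries, at log2 fold changes of -0.56 ± 0.29 (adjusted p = 0.160) and -0.75 ± 0.29 (adjusted p = 0.0709), which did not pass. Both passed without DMSO replicate 1, at -0.89 (adjusted p = 0.0190) and -1.08 (adjusted p = 0.00791). The difference between the changes of the 2 genes was not tested.

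Tnfrsf14, or HVEM, is a receptor of LIGHT and lymphotoxin alpha. It was at 14.8 and 8.34 CPM in the DMSO libraries, 14.2 and 12.9 with MM-401, 25.6 and 30.5 with EPZ5676, 26.7 and 27.9 with MI-2-2 and 12.3 and 9.41 with iBET. The EPZ5676 and MI-2-2 libraries lay above all others, and the MM-401 and iBET libraries lay within the DMSO range. Tnfrsf14 rose 2.42-fold with EPZ5676 (log2 fold change 1.28 ± 0.28, adjusted p = 0.00921) and 2.36-fold with MI-2-2 (log2 fold change 1.24 ± 0.27, adjusted p = 0.00934, edgeR). The calls were lost without EPZ5676 replicate 2 (log2 fold change 1.15, adjusted p = 0.0568) and without MI-2-2 replicate 2 (log2 fold change 1.21, adjusted p = 0.0504). Ltbr, the receptor of the other lymphotoxin complex, was at 53.4 and 82.8 CPM in the DMSO libraries, 66.8 and 77.5 with MM-401, 61.5 and 89.5 with EPZ5676, 65.4 and 77.4 with MI-2-2 and 88.1 and 103 with iBET. Its iBET libraries were among the 3 highest, and its log2 fold change of 0.48 ± 0.25 with iBET did not pass (adjusted p = 0.218).

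Tnfrsf18 and Tnfrsf9 could not be read against DMSO. Tnfrsf18, the receptor GITR, was at 28.6 and 3.07 CPM in the DMSO libraries, 13.6 and 14.7 with MM-401, 33.6 and 41.1 with EPZ5676, 32.6 and 26.5 with MI-2-2 and 8.35 and 7.0 with iBET. The DMSO libraries were 9.32-fold apart and spanned the levels of MM-401, of iBET and of 1 MI-2-2 library. Markers of T and NK cells, which are known to express this receptor, summed to 6.50 CPM in DMSO replicate 1 and 70.0 in replicate 2, of which Nkg7 made up 1.52 and 65.7 CPM and Lck 4.87 and 4.12 CPM. Of the 9 genes, Cd3e, Cd3g, Cd2, Ncr1 and Klrd1 had no read in either DMSO library, and the part of these cells in the Tnfrsf18 levels was not tested. Without DMSO replicate 1 it was called higher with EPZ5676 (3.61, adjusted p = 9.99e-05), MI-2-2 (3.27, adjusted p = 0.000109) and iBET (1.33, adjusted p = 0.00779, edgeR). Without replicate 2 Tnfrsf18 was called lower with iBET (-1.90, adjusted p = 0.00200) and not called with EPZ5676 or MI-2-2, so for iBET the direction turned with the control library. It also overlaps the antisense gene Gm16008 over 27.2% of its exon bases. Tnfrsf9, a costimulatory receptor of T cells, was at 3.35 and 0 CPM in the DMSO libraries, 0.380 and 0.0420 with MM-401, 6.79 and 0.282 with EPZ5676, 22.5 and 2.37 with MI-2-2 and 0 and 0.0383 with iBET. Libraries of the same group were far apart, with 86 reads and 0 in DMSO, and no change against DMSO passed the test in the fit of all libraries without the replicate block.

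The other receptors did not pass the test against DMSO. Tnfrsf13b, the receptor TACI for BAFF and APRIL, was at 11.9 to 19.9 CPM. Tnfrsf12a, the TWEAK receptor, was at 1.44 to 3.52 CPM and highest with iBET (log2 fold change 1.08 ± 0.34, adjusted p = 0.0711, edgeR). Tnfrsf11a, or RANK, the receptor of osteoclast differentiation, was at 0.761 to 3.76 CPM and Tnfrsf4, or OX40, at 1.89 to 2.99 CPM. Cd27, a receptor of T and B cells, was at 1.92 to 5.37 CPM. Tnfrsf17, or BCMA, was not tested, with 0 to 3 reads in a library.

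Of the TRAF genes, none was called with EPZ5676, MI-2-2 or MM-401 against DMSO, where 18.7%, 20.2% and 0% of all genes rose. With iBET 2 of 7 rose, where 6.38% of all genes did. Traf2, the main adaptor of Tnfrsf1b and of the Tnfrsf1a complex, was at 38.9 and 42.5 CPM in the DMSO libraries, 48.9 and 52.7 with MM-401, 46.0 and 50.9 with EPZ5676, 42.1 and 44.7 with MI-2-2 and 57.1 and 57.6 with iBET. The iBET libraries were the highest of all 10, at 1.41-fold DMSO (log2 fold change 0.50 ± 0.11, adjusted p = 0.0291, edgeR). Traf5, a close relative that works with Traf2, was at 5.22 and 5.08 CPM in the DMSO libraries, 5.45 and 5.33 with MM-401, 4.12 and 4.75 with EPZ5676, 7.63 and 6.61 with MI-2-2 and 9.72 and 8.53 with iBET. Again the iBET libraries were the highest, at 1.77-fold DMSO (log2 fold change 0.82 ± 0.21, adjusted p = 0.0426). The Traf2 call was lost without either MM-401 library, either MI-2-2 library or either iBET library (log2 fold change 0.49 to 0.51, adjusted p from 0.05001 to 0.151) and the Traf5 call without either MM-401 library, either EPZ5676 library, either MI-2-2 library or either iBET library (log2 fold change 0.73 to 0.92, adjusted p from 0.0594 to 0.214).

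Traf3 restrains noncanonical NF-kB signaling by driving the turnover of the kinase encoded by Map3k14. It was at 75.7 and 134 CPM in the DMSO libraries, 115 and 119 with MM-401, 149.7 and 150.2 with EPZ5676, 133 and 141 with MI-2-2 and 89.6 and 79.4 with iBET. The DMSO libraries spanned the iBET and MM-401 levels and 1 of the MI-2-2 libraries, and the EPZ5676 libraries were the highest. It did not pass against DMSO in the fit of all libraries, but without DMSO replicate 2 it was called higher with EPZ5676 (1.01, adjusted p = 0.00150) and MI-2-2 (0.89, adjusted p = 0.00199, edgeR), and without replicate 1 lower with iBET (-0.66, adjusted p = 0.00548). Traf1, which NF-kB is known to induce, was at 1.95 and 0.623 CPM in the DMSO libraries, 0.634 and 0.420 with MM-401, 2.62 and 0.847 with EPZ5676, 2.56 and 0.949 with MI-2-2 and 0.309 and 0.230 with iBET. Its iBET libraries were the lowest of the 10 (log2 fold change -2.25 ± 0.84, adjusted p = 0.111), not called in the fit of all libraries but called without DMSO replicate 2 (-2.84, adjusted p = 0.0491). Traf6, which serves Toll-like and IL-1 receptors, was at 84.7 to 106 CPM in all 10 libraries. Traf7, a divergent member of the family, was at 190.3 and 191 CPM in the DMSO libraries, 214 and 198 with MM-401, 255 and 222 with EPZ5676, 260.5 and 216 with MI-2-2 and 166 and 163 with iBET. Its iBET libraries lay below DMSO and its other libraries above. Traf4 was at 6.66 to 14.3 CPM, and neither passed against DMSO.

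Comparisons between inhibitors use no DMSO library, although the fit shares its spread with all groups. Against MM-401, 10 members were called with EPZ5676, all higher, where 33.3% of all genes were called and 16.7% were higher. With MI-2-2, 11 were called, all higher, against 35.7% and 18% of all genes. The 10 with EPZ5676 were Tnfsf13b, Ltb, Fas, Tnfrsf1a, Tnfrsf1b, Tnfrsf8, Tnfrsf14, Tnfrsf23, Tnfrsf25 and Tnfrsf26. Those with MI-2-2 were the same but with Tnf and Tnfrsf21 in place of Tnfrsf25. Tnfsf13b was at a log2 fold change of 3.19 ± 0.28 with EPZ5676 (edgeR adjusted p = 0.000669) and 3.11 ± 0.28 with MI-2-2 (adjusted p = 0.000804), and Tnfrsf23 at 1.77 ± 0.19 and 1.49 ± 0.19. These calls of Tnfsf13b and Tnfrsf23 were kept on leaving out any library. The counts were not as stable, with 4 and 5 called for EPZ5676 without MM-401 replicate 1 and replicate 2 and 6 without EPZ5676 replicate 2, and 4 called for MI-2-2 without either MM-401 library and 7 without MI-2-2 replicate 2.

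iBET differed from MM-401 in 5 members, where 11.4% of all genes were called, 5.48% higher and 5.96% lower. Tnfrsf23 was higher with iBET, and Tnfsf13b, Ltb, Tnfrsf8 and Tnfrsf26 were lower. Tnfrsf26 had a log2 fold change of -1.69 ± 0.21 (adjusted p = 0.00458, edgeR), and its call was kept on leaving out any library. Tnfsf13b was at -2.12 ± 0.31, a call lost without MM-401 replicate 2 or iBET replicate 1 (log2 fold change -1.89 to -2.03, adjusted p from 0.0575 to 0.0629). Every library left out moved this count by more than 1.5 times. It was 10 without either DMSO library, 3 without any EPZ5676 or MI-2-2 library, 2 without MM-401 replicate 1 or iBET replicate 2, and 1 without MM-401 replicate 2 or iBET replicate 1.

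EPZ5676 and MI-2-2 were not told apart in any of the 34 members, where 0.0154% of all genes, 2 in number, were called between them by edgeR, 0.00771% higher and 0.00771% lower with EPZ5676. At an unadjusted p under 0.05 there was 1 member, Traf5, at -0.68 with a 95% interval from -1.18 to -0.18, and the DESeq2 test called 0 members. For 21 of the 34 members the 95% interval of the log2 difference lay within 2-fold in either direction, among them Tnfsf13b (0.08 with a 95% interval from -0.50 to 0.65) and Tnfrsf1a (0.13 with a 95% interval from -0.16 to 0.42). For the other 13 it reached further, as for Ltb (0.30 with a 95% interval from -0.84 to 1.45), Tnfrsf8 (-0.45 with a 95% interval from -1.38 to 0.48) and Tnfsf10 (-1.03 with a 95% interval from -2.23 to 0.17), so a difference of more than 2-fold lay within the interval. The doses were set as the IC50 of each inhibitor.

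The direct comparison of iBET with EPZ5676 and with MI-2-2 was added after the values had been seen. Against EPZ5676, 14 members were lower and 1 higher with iBET, where 37.6% of all genes were called, 19.1% lower. Against MI-2-2, 16 were lower and 2 higher, where 38.8% of all genes were called, 19.7% lower. The median log2 difference was -0.56 and -0.59 over the members and 0.04 and 0.03 over all genes. The differences were large for Tnfsf13b, at -5.30 ± 0.32 against EPZ5676 (edgeR adjusted p = 8.11e-05), for Ltb at -5.49 ± 0.65 (adjusted p = 0.000756), for Tnfrsf8 at -4.60 ± 0.52 (adjusted p = 0.000621) and for Tnfrsf26 at -3.17 ± 0.22 (adjusted p = 0.000125). Those 4 calls, and the same 4 against MI-2-2, were kept on leaving out any library. In Tnf the inhibitors were not told apart, at -0.32 with a 95% interval from -1.02 to 0.38 against EPZ5676 and -0.42 with a 95% interval from -1.12 to 0.28 against MI-2-2.

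The same comparison showed differences in TRAF genes. Traf1 was lower with iBET than with EPZ5676 (log2 fold change -2.67 ± 0.84, adjusted p = 0.0392) and MI-2-2 (log2 fold change -2.68 ± 0.84, adjusted p = 0.0375, edgeR). Traf3 was lower as well (log2 fold change -0.83 ± 0.23, adjusted p = 0.0248 and log2 fold change -0.70 ± 0.23, adjusted p = 0.0446), and so was Traf7, at -0.53 ± 0.13 and -0.53 ± 0.13. Traf5 was higher than with EPZ5676 (log2 fold change 1.04 ± 0.22, adjusted p = 0.00790) and Traf2 higher than with MI-2-2 (log2 fold change 0.40 ± 0.11, adjusted p = 0.0262). Each of these TRAF calls was lost without at least 1 of the libraries compared, and the count of members called was 6 to 8 against EPZ5676 without either iBET library or EPZ5676 replicate 1. Against MI-2-2 it was 5 without either iBET library, 8 and 7 without the MI-2-2 libraries and 11 without either MM-401 library. For Traf1 the log2 difference was -1.64 (adjusted p = 0.235) without EPZ5676 replicate 1. Among the other members, Tnfsf10 (log2 fold change -1.62 ± 0.53, adjusted p = 0.0445) was called lower and Tnfrsf22 (log2 fold change 0.90 ± 0.29, adjusted p = 0.0408) higher only against MI-2-2, and Tnfsf14 (log2 fold change -0.98 ± 0.31, adjusted p = 0.0407) lower only against EPZ5676. Those calls were each lost on leaving out any of the 8 libraries other than DMSO. Tnfrsf9 was called lower against MI-2-2, where 1 read stood against 583, a ratio of 0.00177 (95% interval 4.48e-05 to 0.00993) for counting error only, and the call was lost without either MM-401, either MI-2-2 or either iBET library.

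Genes that act downstream of these receptors were described from lists chosen by function, and their counts are to be read against the 38.1% (EPZ5676), 41.4% (MI-2-2) and 13.9% (iBET) of all genes that were called against DMSO, with median log2 fold changes of -0.06, -0.05 and -0.04. Of 11 NF-kB subunits and inhibitors tested, 4 rose with EPZ5676 and 0 fell, 8 rose and 1 fell with MI-2-2, and 1 rose and 1 fell with iBET. That is 36.4%, 81.8% and 18.2% of the list, the first and the last near the shares of all genes, and the medians were 0.47, 0.86 and 0.29. Nfkbia, the NF-kB inhibitor that NF-kB itself induces, was at a mean of 43.3 CPM in DMSO, 329 with EPZ5676 and 258 with MI-2-2 (log2 fold change 2.92 ± 0.23, adjusted p = 0.000380 and log2 fold change 2.58 ± 0.23, adjusted p = 0.000533, edgeR). Nfkbiz, a nuclear NF-kB regulator, rose from 2.53 to 17.3 CPM with EPZ5676 (log2 fold change 2.77 ± 0.40, adjusted p = 0.00199). No gene of an NF-kB subunit was called with EPZ5676. The gene of this list that rose with iBET was Nfkbia (log2 fold change 0.82 ± 0.22, adjusted p = 0.0452), and the gene that fell was Nfkb1 (log2 fold change -0.51 ± 0.14, adjusted p = 0.0482), calls that were both lost without DMSO replicate 2, either MM-401 library or either EPZ5676 library, where 0 of the list were called. The iBET count was 4 up and 1 down without DMSO replicate 1. The counts for EPZ5676 were 6 up and 2 down without DMSO replicate 1 and 5 up and 0 down without replicate 2.

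Of 14 TNF and NF-kB target genes tested, 8 rose and 1 fell with EPZ5676, 9 rose and 1 fell with MI-2-2, and 0 rose and 1 fell with iBET. These were 64.3%, 71.4% and 7.14% of the list, against 38.1%, 41.4% and 13.9% of all genes, with medians of 1.82, 1.84 and -0.23. Without MI-2-2 replicate 2 the MI-2-2 count was 6 in all, and the iBET count was 4 without DMSO replicate 1 and 3 without replicate 2. Ccl2, a chemokine for monocytes, was at 0.461 CPM in DMSO and 35.0 with EPZ5676 (log2 fold change 6.29 ± 0.91, adjusted p = 0.00201). Tnfaip2, named for its induction by TNF, was at 124 and 385 CPM (log2 fold change 1.63 ± 0.19, adjusted p = 0.00103, edgeR). Mmp9, a protease that is also in the neutrophil marker list, was at 6.07 and 287 CPM (log2 fold change 5.55 ± 0.51, adjusted p = 0.000558). The gene that fell with EPZ5676 and with MI-2-2 was Sod2 (log2 fold change -0.76 ± 0.12, adjusted p = 0.00283 and log2 fold change -0.68 ± 0.12, adjusted p = 0.00398, edgeR). The gene that fell with iBET was Vcam1, an adhesion molecule, from 34.1 to 0.839 CPM (log2 fold change -5.35 ± 0.49, adjusted p = 0.00194). The summed neutrophil and macrophage markers given above moved with these genes too, and their part was not tested.

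Of 24 genes of receptor-proximal signaling, 8 rose and 1 fell with EPZ5676, 11 rose and 1 fell with MI-2-2, and 4 rose and 0 fell with iBET. The shares called, 37.5%, 50% and 16.7% for the 3 inhibitors in this order, stood against 38.1%, 41.4% and 13.9% of all genes, so with EPZ5676 and iBET they were near the background, and the medians were 0.28, 0.46 and 0.20. Map3k5, the stress kinase ASK1, was at 6.51 CPM in DMSO and 50.4 with EPZ5676 (log2 fold change 2.96 ± 0.42, adjusted p = 0.00189). Map3k14, the kinase of noncanonical NF-kB signaling, rose with EPZ5676 (log2 fold change 0.94 ± 0.19, adjusted p = 0.00693), MI-2-2 (log2 fold change 1.24 ± 0.19, adjusted p = 0.00221) and iBET (log2 fold change 1.28 ± 0.19, adjusted p = 0.00762, edgeR). With iBET, Tradd (log2 fold change 0.68 ± 0.12, adjusted p = 0.0115) and Ripk1 (log2 fold change 1.08 ± 0.23, adjusted p = 0.0214), the first adaptors of the Tnfrsf1a complex, rose too. Without DMSO replicate 1 or 2 the iBET count of this list was 7 up and 1 down, and without either iBET library it was 0. The EPZ5676 count was 5 and 3 without EPZ5676 replicate 1 and replicate 2, and the MI-2-2 count was 4 without MI-2-2 replicate 2.

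The 15 genes of death receptor signaling moved in both directions. With EPZ5676 3 rose and 4 fell, with MI-2-2 5 rose and 3 fell, and with iBET 3 rose and 0 fell. In all 46.7%, 53.3% and 20% of the list were called, against 38.1%, 41.4% and 13.9% of all genes, and the medians were -0.03, 0.09 and 0.18. The counts were 4 in all without EPZ5676 replicate 2, 5 without MI-2-2 replicate 2, and 0 for iBET without either MM-401 or either iBET library. Faf1, a Fas-binding factor, fell with EPZ5676 from 170.3 to 64.3 CPM (log2 fold change -1.40 ± 0.19, adjusted p = 0.00146). Apaf1 rose with EPZ5676 from 195 to 316 CPM (log2 fold change 0.69 ± 0.11, adjusted p = 0.00317, edgeR). Diablo, a mitochondrial antagonist of caspase inhibitors, fell with EPZ5676 (log2 fold change -0.87 ± 0.15, adjusted p = 0.00390) and rose with iBET (log2 fold change 0.70 ± 0.15, adjusted p = 0.0225, edgeR). Bid, which links caspase activation to mitochondria, fell with MI-2-2 (log2 fold change -0.53 ± 0.10, adjusted p = 0.00595) and rose with iBET (log2 fold change 0.49 ± 0.10, adjusted p = 0.0210). Of 6 genes of ligand shedding, 2 rose and 1 fell with EPZ5676, 3 rose and 1 fell with MI-2-2 and 0 were called with iBET, which was 50%, 66.7% and 0% of the list against 38.1%, 41.4% and 13.9% of all genes, with medians of 0.20, 0.37 and 0.36. Rhbdf2, a cofactor of the TNF-releasing protease, was at 34.9 CPM in DMSO and 111 with EPZ5676 (log2 fold change 1.67 ± 0.32, adjusted p = 0.00610). Relt, a receptor of the family whose symbol the rule does not match, rose with all 3 of these inhibitors, at 1.20 ± 0.20 (EPZ5676), 1.08 ± 0.20 (MI-2-2) and 0.88 ± 0.20 (iBET) on the log2 scale, the last lost without either iBET library. With MM-401 no gene of the 6 lists was called by edgeR. There were 2 calls without DMSO replicate 1 among the NF-kB genes, 2 among the death signaling genes and 1 among the shedding genes, and the DESeq2 test called 2 target genes.

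The 11 names under the read minimum had at most 7 reads each over the 10 libraries. Fasl, the ligand of Fas, had 3 reads, and Tnfsf11, the ligand of Tnfrsf11a, had 1. Tnfsf4, Tnfrsf13c and Tnfrsf19 had 4 reads each, Tnfsf8, the ligand of Tnfrsf8, 7 and Tnfsf15 2. Cd70, Tnfsf18, Tnfrsf11b and the read-through name Tnfsf12Tnfsf13 had none. The ligands of Fas, Tnfrsf8, Cd27 and Tnfrsf18 were therefore at or near 0 in these libraries at this depth.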

How the data were processed

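Gene expression was measured by RNA-seq (TruSeq libraries of total RNA) in MAF9 cells. The authors deposited read counts per gene without normalization, in 1 table of 24015 gene symbols and 10 libraries. Per the labels' processing notes mm9, TopHat2, Subread and DESeq were used. The sources used here do not give their roles, the treatment of reads shared between genes or the strand setting. How shared reads were counted bears most on overlapping genes and on the Tnfrsf22, Tnfrsf23 and Tnfrsf26 cluster.

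Libraries were grouped by their labels. In R 4.3.3 the counts were filtered (filterByExpr, 12971 genes kept, 34 of 36 members), scaled by TMM and fitted in edgeR 4.0.16 with glmQLFit, all 10 libraries in 1 model with 1 coefficient per group, so that all groups share 1 estimate of the spread. Each comparison was tested with glmQLFTest and adjusted over all genes tested by Benjamini-Hochberg at 0.05. Values after ± are standard errors of the log2 fold change. These p-values measure only the spread between the libraries, and whether the duplicates were separate cultures is not stated. Levels are CPM on TMM-scaled library sizes. Groups with 1 to 3 reads are given as ratios with exact binomial intervals, and groups with none against 3 reads over the group. The fit was also run on simulated data in which all groups had the same spread. That does not test it for DMSO libraries as far apart as these. Alternatives were DESeq2 1.42.0 (its size factors, or its test), total-count scaling, no filter, a replicate block, a fit of only the groups compared, and each library left out in turn, which assumes that the lone library varies like the others. The filter and the scaling were redone whenever a library was left out. Every member may be named. From each functional list, at most 3 genes per comparison were named, those with the smallest adjusted p. The members and lists were chosen with earlier results of these data known. Exon lengths came from GENCODE M21 and promoters and gene order from RefSeq (GRCm38.p6), matched by symbol, and no coordinate of the deposited build is used.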

Additional observations from a re-analysis of the deposited data

How the results depend on the processing

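No call of a member reversed under any of the 16 alternatives of each comparison. All 16 kept 6 of the 13 EPZ5676 calls against DMSO (Tnf, Tnfrsf1a, Tnfrsf1b, Tnfrsf23, Tnfrsf26 and Tnfsf13b), 4 of the 12 MI-2-2 calls (Tnf, Tnfrsf1b, Tnfrsf23 and Tnfsf13b) and 0 of the 9 iBET calls. A fit of only the groups compared called 6 (EPZ5676), 4 (MI-2-2) and 0 (iBET) members against DMSO, and 13 for iBET against MM-401. Total-count scaling called 3 members for iBET against MM-401 and 12 for iBET against MI-2-2. It moved the median log2 fold change of all genes by -0.17 for EPZ5676 and -0.15 for MI-2-2 against DMSO, and Tnfrsf26 was no longer called with MI-2-2. The cause of the other changes was not tested. Apart from the fit of DMSO and iBET alone, the shares of all genes called under the alternatives are not given here. The counts of members in this section therefore cannot be set against those of all genes.

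With each library left out in turn, the members called ranged from 9 to 16 for EPZ5676, 9 to 15 for MI-2-2, 1 to 13 for iBET and 0 to 3 for MM-401 against DMSO. They ranged from 4 to 14 for EPZ5676, 4 to 15 for MI-2-2 and 1 to 10 for iBET against MM-401, were 0 throughout for EPZ5676 against MI-2-2, and ranged from 6 to 19 and 5 to 20 for iBET against EPZ5676 and MI-2-2.

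The labels do not tie a replicate number to a culture or day. The deviations of libraries with the same number from the group means correlated in each of 10 pairs of groups (r from 0.303 to 0.704, across genes), and Tnf, Cd27, Traf1 and Traf4 were higher in replicate 1 in all 5 groups. With the replicate block 15, 14, 14 and 0 members were called for EPZ5676, MI-2-2, iBET and MM-401 against DMSO, and against MM-401 the counts were 14 (EPZ5676), 14 (MI-2-2) and 6 (iBET), with 0 for EPZ5676 against MI-2-2, and 17 and 20 for iBET against EPZ5676 and MI-2-2. For iBET against DMSO it called 4 NF-kB genes, 4 target genes, 7 receptor-proximal genes and 2 shedding genes, and it lost no call of a member in any comparison. The shares of all genes called with the block are not given here. Low members such as Tnfrsf25, Lta and Tnfrsf9 are limited by depth, with 0 to 2 reads in some groups.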
